A study of Mus musculus with 15 samples.

Results

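Ranbp6, Nedd1, Spp1 and Hipk2 are the 4 genes with the transcription start nearest to the 4 strongest Pax6 peaks of αTN4 cells, and their surroundings are described here mark by mark. They were chosen by the −log10 q of those Pax6 peaks, out of 22380 protein-coding genes of GENCODE vM1, so the strength of the Pax6 peaks is a description and supports nothing. The window of a gene is its body plus 50 kb on each side, or 200 kb for Nedd1, whose peak lies farther away. These windows hold 7 of the 504 Pax6 peaks called in αTN4 cells.

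αTN4 is a mouse lens epithelial line transformed by the SV40 T antigen. The cells were infected with lentivirus carrying a control shRNA or an shRNA against Pax6 (KD) and selected with puromycin for 14 days, so both arms carry an integrated virus and the drug. Each arm is a selected stable line. The study's methods give the Pax6 sh2 line for this ChIP-seq, and the labels name only the target of the shRNA. ChIP-seq regions of Pax6, RNA polymerase II (Pol2), H3K4me1, H3K4me2 and H3K4me3 were used for the control and of the 3 methylation marks for KD, together with H3K4me2 of whole newborn (P1) lenses of CD-1 mice. The H3K4me1 lists hold 38007 islands in control and 18417 in KD, the H3K4me2 lists 66274 and 65852 peaks, and the H3K4me3 lists 14869 and 14301. Every list comes from 1 library as the labels give it, so no value below has a replicate error and no test between conditions was possible. Pax6 and Pol2 were not mapped in KD cells in these lists, and the depth of the knockdown was not checked here.

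Pax6 is a paired-domain and homeodomain transcription factor that is required to form the lens. Methylation of lysine 4 of histone H3 marks regulatory DNA. The trimethyl form sits mainly at active promoters, the monomethyl form at enhancers, and the dimethyl form at both. The 4 genes differ in what they do. Ranbp6 belongs to the importin-β family of nuclear transport receptors, Nedd1 anchors the γ-tubulin ring complex to centrosomes and spindles, Spp1 encodes the secreted phosphoprotein osteopontin, and Hipk2 is a nuclear kinase that phosphorylates homeodomain factors, Pax6 among them.

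The sequences under the 4 lead Pax6 peaks, the strongest of each window, are shown first because they chose the genes. Each line gives mm9 sequence (forward strand) around the summit, the point of highest Pax6 signal. Capitals mark the best 15 bp match to a motif learned from the 497 Pax6 peaks outside the windows.
Ranbp6 lead peak, chr19:29897606-29897756: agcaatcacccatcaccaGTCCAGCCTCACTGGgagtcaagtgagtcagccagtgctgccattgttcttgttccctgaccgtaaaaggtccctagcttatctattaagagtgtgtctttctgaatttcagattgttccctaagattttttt
Nedd1 lead peak, chr10:92019797-92019947: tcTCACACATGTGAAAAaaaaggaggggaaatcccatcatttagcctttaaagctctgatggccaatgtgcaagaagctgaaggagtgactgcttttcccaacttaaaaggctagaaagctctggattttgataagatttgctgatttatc
Spp1 lead peak, chr5:104825446-104825596: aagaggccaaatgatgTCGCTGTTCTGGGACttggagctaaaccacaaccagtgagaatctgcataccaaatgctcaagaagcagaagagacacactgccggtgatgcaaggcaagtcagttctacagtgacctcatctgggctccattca
Hipk2 lead peak, chr6:38710375-38710525: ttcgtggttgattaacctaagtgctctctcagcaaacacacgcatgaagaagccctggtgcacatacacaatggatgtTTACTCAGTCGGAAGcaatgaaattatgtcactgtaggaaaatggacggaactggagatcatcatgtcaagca

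A match was counted when it scored above 95% of windows 500 bp to either side of the same 497 summits. By that measure 54.1% of the 497 summit windows (100 bp to each side, both strands) held the motif, against 4.83% of the flanking windows. The motif was learned from these same summit windows and the threshold was set on these flanking windows. Both shares therefore describe the fit and are no test. The peaks of the gene windows were left out of the learning, so a ranking against the 497 can place them too low. Among the lead peaks the Ranbp6 match passed, and those of Nedd1, Spp1 and Hipk2 did not. The Ranbp6 site, on the reverse strand and 50 bp left of the summit, scored higher than 49.7% of the other peaks. The Hipk2 site was close behind, higher than 40.0%, and the Nedd1 site was higher than 34.6%. The Spp1 site scored above only 8.85% of the other peaks, the lowest of the 4. Among the 3 weaker Pax6 peaks of the windows, that of Hipk2 held the motif and those of Nedd1 and Spp1 did not.
Hipk2 second peak, chr6:38795389-38795539: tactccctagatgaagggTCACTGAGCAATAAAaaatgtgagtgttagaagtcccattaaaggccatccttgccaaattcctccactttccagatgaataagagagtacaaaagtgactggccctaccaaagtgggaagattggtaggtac

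Short words of other factor families were searched on both strands of the same windows. The AP-1 word TGANTCA lay in 1 of the 7 windows, that of the Ranbp6 lead peak, where it stands in lower case to the right of the marked site. It occurred in 21.8% of all 504 summit windows and in 7.04% of 1008 flanking windows. The Meis word CTGTCA lay only in the window of the second Spp1 peak of the 7 (13.9% of summit and 10.9% of flanking windows), and the Ets word CCGGAA in none of the 7 (6.15% and 1.88%). The Maf half-site word TGCTGA lay in the lead windows of Nedd1, Spp1 and Hipk2 (19.4% and 15.2% of all windows), and the Sox word ACAANG in those of Ranbp6, Spp1 and Hipk2 (36.9% and 38.2%). These are matches of letters, and the absence of a word says only that these letters are not in that window.

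The peak beside Ranbp6 lies between genes on chromosome 19 from 29897516 to 29897881. Its −log10 q was 68.7, the highest of the list, and its summit lies 10.2 kb upstream of the Ranbp6 start. The peak assigned to Nedd1 lies on chromosome 10 from 92019602 to 92020091, with a −log10 q of 59.4 and, at 21.0, the highest fold enrichment over background of the list. It lies far beyond the 3′ end of the gene. Its summit is 127.6 kb from the gene's end and 165.3 kb from its start, and no protein-coding gene lies on the other side for 1328.6 kb, where Gm16484 follows. The Spp1 peak lies on chromosome 5 from 104825394 to 104825693, 38.6 kb upstream of the start, with a −log10 q of 58.0 and a fold of 20.7. Mepe, of the same gene family as Spp1, lies 57.9 kb away on the other side. The Hipk2 peak, on chromosome 6 from 38710291 to 38710611, lies in an intron of the gene, 16.6 kb from the nearest of its transcript starts, with a −log10 q of 55.11 and a fold of 16.6. The next peaks in this order differ little from it, at 55.08 (nearest start Plekha1) and 55.07 (Sgpp2), so the border of the selection is narrow.

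A second, weaker Pax6 peak lies in the windows of Nedd1, Spp1 and Hipk2, and the Ranbp6 window holds none. The second Nedd1 peak has a fold of 7.30 and lies 1.24 kb from the lead. The second Spp1 peak has a fold of 9.10 and lies 11.6 kb from the lead, toward the gene. The second Hipk2 peak has a fold of 4.55 and a −log10 q of 4.86 and lies 85.0 kb from the lead, also in intron sequence of the gene.

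**Figure D1:**
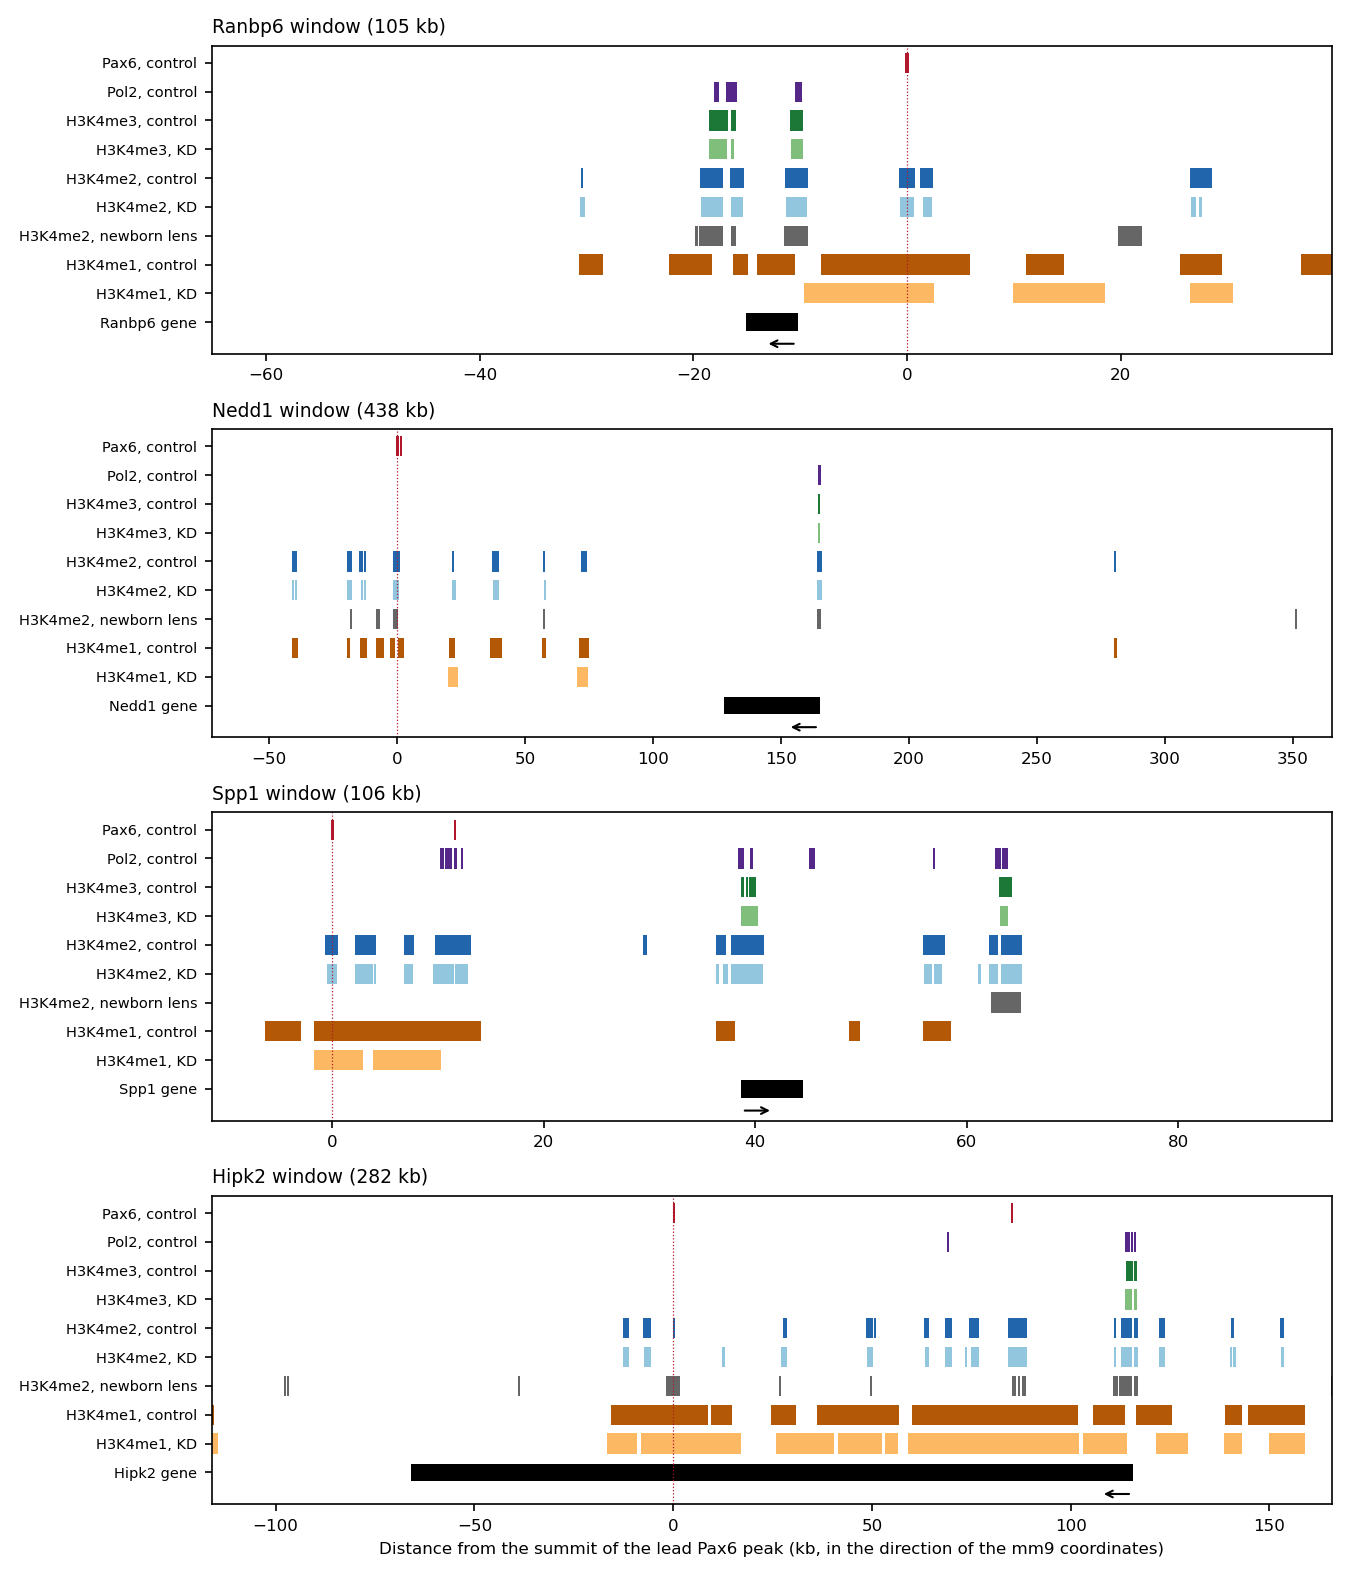
Regions called in each window, with distance in kb from the lead Pax6 summit on the x axis, 1 row per list and the gene in black with an arrow at its start. The lead Pax6 peak stands away from the H3K4me3 and Pol2 peaks of the gene in all 4 windows, and the control H3K4me1 islands of the Nedd1 window are mostly without a counterpart in KD. Over the whole list, 46.2% of control islands had one.

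All 7 Pax6 peaks overlapped a control H3K4me2 peak by at least 1 bp, where 76.2% of all Pax6 peaks did. A control H3K4me1 island lay over 6 of the 7, against 76.0% of all Pax6 peaks. The exception was the lead Nedd1 peak. It lies in a gap of 1000 bp between a pair of H3K4me1 islands, 672 bp from the one and 329 bp from the other, while a single H3K4me2 peak of 2949 bp spans it. No Pax6 peak of the windows overlapped H3K4me3, and the share over all Pax6 peaks was not counted. Pol2 lay over 1 of the 7, the second Spp1 peak, where 19.4% of all Pax6 peaks overlapped Pol2. Lens H3K4me2 lay over 2 of the 7, the lead peaks of Nedd1 and Hipk2, against 38.3% of all Pax6 peaks. With 7 peaks these shares are descriptions only.

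At the Ranbp6 lead peak, most marks were found in both arms. The control H3K4me1 island there is 14000 bp wide and holds 374 ChIP reads, or 26.7 reads per kb (exact 95% Poisson interval 24.1 to 29.6). The KD island is 12200 bp wide with 226 reads, or 18.5 per kb (16.2 to 21.1). Read density was lower in KD by itself, but it was lower at the median of 13763 islands paired 1 to 1 as well, by 0.31 on the log2 scale. Input reads per kb over the same pairs had a median change of −0.28, nearly as large. Relative to the median change in ChIP reads, the Ranbp6 island changed by −0.22 (95% interval of the 2 counts, −0.47 to 0.02), which is at the lower quartile of all pairs, −0.22. Fold over input was 3.01 in the control island and 1.70 in the KD island, and its percentile within the list went from 34.2 to 8.42, a change of −25.8. The median fold was 3.51 over the whole control list and 2.61 over the whole KD list. The spread of percentile changes over all H3K4me1 islands was not computed, so the size of such a change has no background here. Input reads numbered 18.9 per kb in the control island and 17.4 in the KD island, and relative to them the change in reads was −0.39. The H3K4me2 peak over the Pax6 summit had a fold of 10.3 in the control and 10.6 in KD. Ranked within its own list, it stood at percentile 65.8 and then 64.9. No lens H3K4me2 peak lay there, and the nearest began 9297 bp from the summit.

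At the Nedd1 lead peak, H3K4me1 on both sides was not called in KD. The H3K4me1 islands on its left (51 reads) and right (53 reads) had no KD island over them, and the nearest KD island lay 19.7 kb away. Over the whole list only 32.9% of control islands under 100 reads had a KD island, so such a loss is common. The right island holds the second Pax6 peak. H3K4me2 was found in both arms, with a fold of 15.8 in the control and 8.36 in KD. Its percentile moved from 82.6 to 56.0, a change of −26.6 where the quartiles of all kept H3K4me2 peaks were −9.57 and 5.75. Ranked by −log10 q, the change was −11.6. The KD peak ends before the second Pax6 peak, so that the second peak had neither H3K4me1 nor H3K4me2 over it in KD. In newborn lens an H3K4me2 peak of 1722 bp with a fold of 11.6 covered the lead summit.

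At the Spp1 lead peak, a control island of 15800 bp holds both Pax6 peaks, with 371 reads or 23.5 per kb (21.2 to 26.0). In KD it was replaced by separate islands of 4600 and 6400 bp with a gap between them. The first covers the lead peak with 94 reads, or 20.4 per kb (16.5 to 25.01). Fold over input was 5.20 in the control island and 3.13 in this KD island, at percentiles 85.6 and 69.4 of their lists. The KD island of 6400 bp had a fold of 4.24, at percentile 90.8, so by percentile the parts of the control island went opposite ways. Reads per kb changed by 0.11 relative to the median of all pairs (−0.24 to 0.44), a value that covers only the part of the control island still called around the lead peak. The second Pax6 peak lay 1359 bp beyond the KD islands. H3K4me2 over the lead peak went from a fold of 7.17 to 6.25 and from percentile 51.6 to 40.8. Over the second Pax6 peak the control H3K4me2 peak had a fold of 12.8, and in KD it was called as separate peaks with folds of 16.3 and 11.03 and with the Pax6 summit in the gap between them. No H3K4me2 peak of newborn lens lay within 37.3 kb of the lead summit.

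At the Hipk2 lead peak, H3K4me1 was broad in both arms. The control island is 24400 bp wide with 681 reads, or 27.9 per kb (25.9 to 30.1). In KD it was called as 2 islands, of which one is 7600 bp wide with 192 reads. The other, over the Pax6 peak, is 25000 bp wide with 594 reads, or 23.8 per kb (21.9 to 25.7), and also takes in a smaller control island nearby. From the control island to the KD island over the Pax6 peak, reads per kb changed by 0.07 relative to the median (−0.09 to 0.23). This is not a 1 to 1 pair. The percentile by fold went from 25.4 to 40.5. The control H3K4me2 peak there is small, 472 bp with a fold of 3.71, and had no KD peak over it. In newborn lens, H3K4me2 covered the same site with a peak of 2437 bp and a fold of 7.37, so here the lens peak was called wider and with a higher fold. These lists were called separately at unknown depth, so this does not compare the amount of the mark. The second Hipk2 Pax6 peak lies in an island of 41600 bp with 1447 control reads and 1193 KD reads, or 34.8 (33.0 to 36.6) and 27.6 (26.1 to 29.2) per kb, a relative change of −0.03 (−0.14 to 0.08). The H3K4me2 peak over it had a fold of 12.3 in the control and 17.5 in KD.

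**Figure D2:**
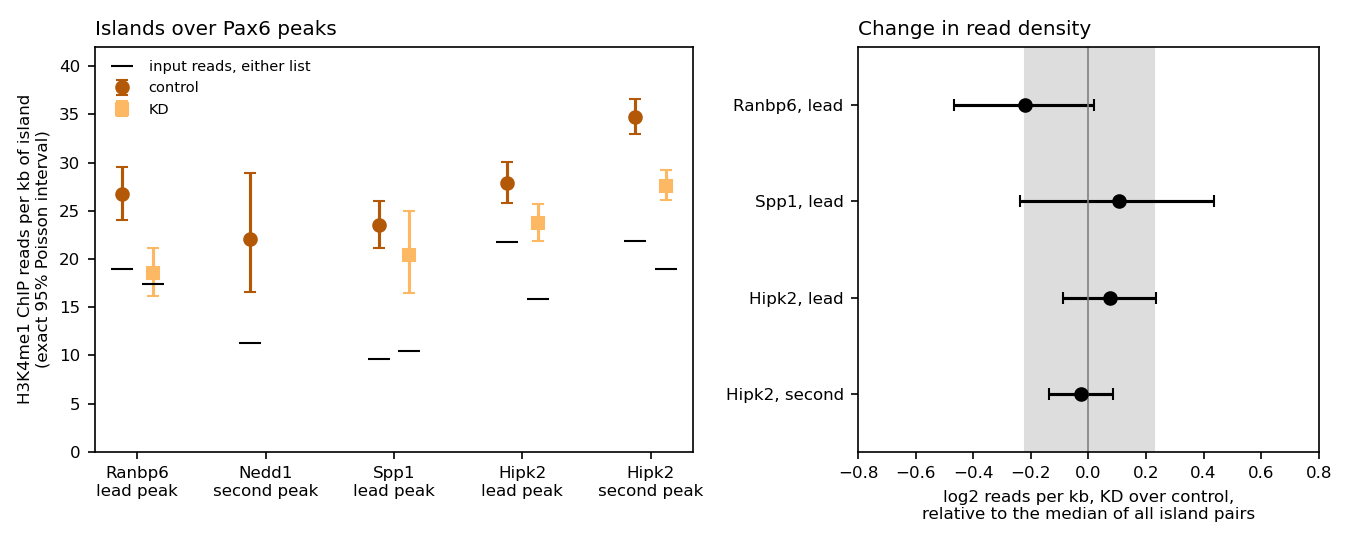
Left, H3K4me1 ChIP reads per kb in the islands over Pax6 peaks (control circles, KD squares, exact 95% Poisson intervals; dashes give input reads per kb), and right, the log2 change in reads per kb relative to the median of all island pairs, with the range between the quartiles of all pairs shaded. The Ranbp6 island lies at the left edge of the shading at −0.22, the others lie inside it, and the Nedd1 island has no KD value because no KD island was called.

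The density of an island is taken over the bases called in its own list, so sequence that was no longer called in KD is not in the KD value, and control and KD islands differ in extent. These changes therefore do not measure 1 fixed region, and they do not show that H3K4me1 stayed the same. Their sign depended on the scaling. Relative to total reads over islands the Ranbp6 value was 0.30, and relative to input reads the Spp1 value was −0.31. The intervals cover counting error of 1 library per arm and not the spread between cultures.

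Across the windows, 16 of 34 control H3K4me1 islands overlapped a KD island (47.1%, 95% Wilson interval 31.5 to 63.3), against 46.2% of the 38007 islands of the whole list. The windows differed widely around that value. All 10 islands of the Hipk2 window were kept, but 3 of 8 at Ranbp6, 2 of 11 at Nedd1 and 1 of 5 at Spp1. The islands also differed in reads. Those of the Hipk2 window held 91 to 1447 ChIP reads, whereas 20 of the other 24 held under 100. Of the 21 islands under 100 reads, 4 were kept (19.0%), against 32.9% of such islands in the whole list, and of the 13 with 100 or more, 12 were kept (92.3%), against 91.4%. The single read-rich island without a KD counterpart lies in the Nedd1 window from 92056001 to 92061000, 36.1 kb from the lead peak toward the gene. It held 130 reads, with a fold of 5.22 over input, and a kept island of that window held almost as many (129). Of the 2 H3K4me2 peaks inside it, the wider one was kept. None of the 18 KD islands in the windows lacked a control island, where 6.93% of all KD islands did.

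**Figure D3:**
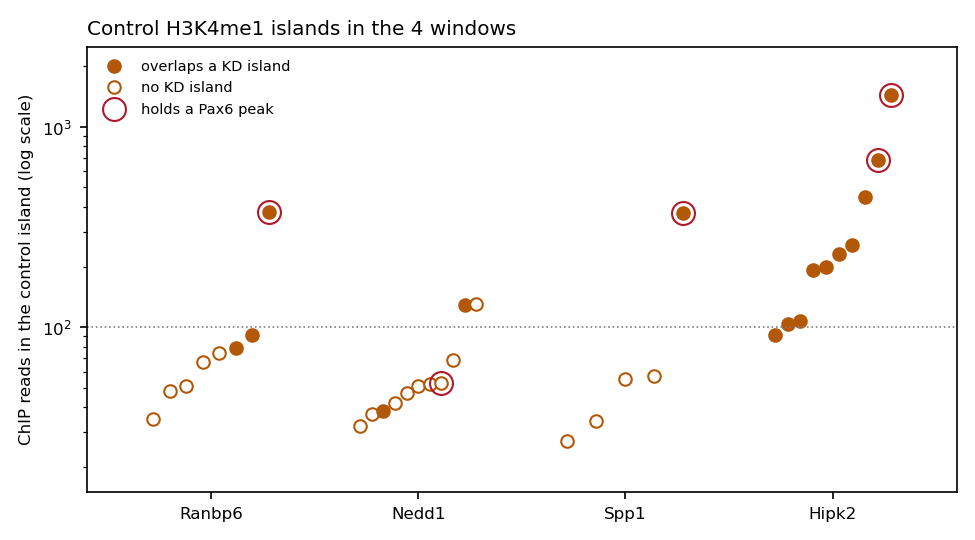
ChIP reads of each control H3K4me1 island (log scale) in the 4 windows, filled where a KD island overlapped it and ringed where it holds a Pax6 peak. Above the line at 100 reads, 12 of 13 islands are filled, and below it 4 of 21.

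Input reads differed between the windows in the same lists. The control islands at Ranbp6 and Hipk2 held 20.1 and 20.5 input reads per kb, and those at Nedd1 and Spp1 10.99 and 9.80, around a mean of 13.7 over all islands. Fold over input was accordingly lower at Ranbp6 and Hipk2 (medians 2.29 and 2.61) than at Nedd1 and Spp1 (5.09 and 5.20), although ChIP reads per kb ranged only from 22.1 to 27.1. Their part in the calls was not tested.

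Of the 52 control H3K4me2 peaks, 43 overlapped a KD peak (82.7%, 70.3 to 90.6), against 82.5% of the whole list. All 7 at Ranbp6 were kept, 9 of 10 at Spp1, 16 of 18 at Hipk2 and 11 of 17 at Nedd1, where 6 of the 9 lost peaks lay. The lost peaks were small, with folds from 2.63 to 5.87. Among the kept peaks 26 of 43 stood at a lower percentile in KD, against 57.4% of all kept peaks, and the median change was −1.57, against −1.85. The largest fall, −32.2, was at a peak 27.5 kb from the Ranbp6 lead peak, on the side away from the gene, whose fold was 6.42 in the control and 4.28 at its strongest in KD. The largest rise, 32.9, was at a Hipk2 peak 76.6 kb from the lead. That peak and its neighbour merged into 1 KD peak, so the rise compares regions of unequal width. New KD peaks without a control peak numbered 4 of 54, against 7.34% of the KD list, with 3 at Hipk2 and 1 at Spp1.

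**Figure D4:**
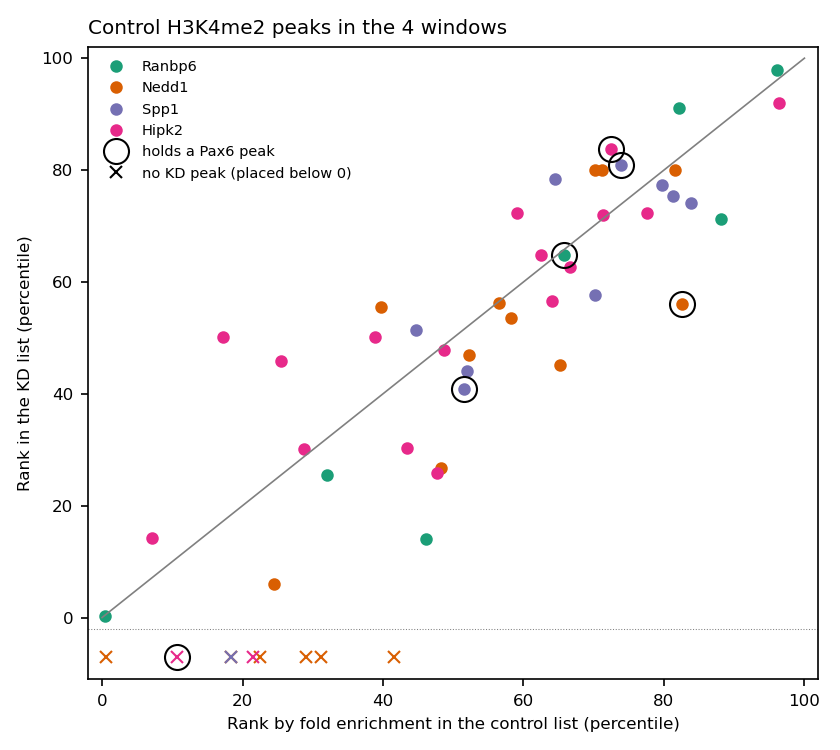
Percentile by fold enrichment of each control H3K4me2 peak in the 4 windows (x axis) and of the strongest KD peak over it (y axis), with peaks that hold a Pax6 peak ringed and peaks without a KD peak as crosses below 0. The ringed Nedd1 peak lies furthest below the diagonal among the ringed peaks, at 82.6 and 56.0, and the ringed Hipk2 lead peak is a cross.

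Part of these regions were also found in newborn lens. Of the 52 control H3K4me2 peaks, 17 overlapped a lens peak (32.7%, 21.5 to 46.2), against 41.3% of the whole list, an interval that includes the background. The interval treats neighbouring peaks as independent draws, so it is no test against the list. By window the counts were 3 of 7 at Ranbp6, 5 of 17 at Nedd1, 2 of 10 at Spp1 and 7 of 18 at Hipk2. Conversely 16 of the 29 lens peaks in the windows overlapped a control peak (55.2%, 37.5 to 71.6), against 45.4%. The Spp1 window had 10 control peaks and 1 lens peak, which lies at the start of Pkd2, another gene of this window. Gm10047, whose start lies between Spp1 and that of Pkd2, had H3K4me2 within 2 kb of it in αTN4 cells and none in lens. The Hipk2 window had 16 lens peaks, of which 8 lay outside control peaks, and these included the pair at the start of Clec2l, a gene with no H3K4 methylation or Pol2 at its start in αTN4 cells. At Nedd1, 7 lens peaks lay where αTN4 cells had 17.

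At the promoters, all 4 genes had Pol2 and H3K4me3 within 2 kb of a start in control cells, where 47.9% and 49.0% of protein-coding genes did. All 10 control H3K4me3 peaks of the windows were kept in KD, against 89.9% of the list, and none of the 8 KD peaks was new, against 2.65%. The promoters differed in kind. Upstream RefSeq sequence shows this for 3 of the genes, with each CpG in capitals, 250 bases before the start, written along the strand of the gene with mm9 positions from an exact match of the sequence. The Nedd1 promoter was not in the table used.
Ranbp6, minus strand, chr19:29887465-29887714: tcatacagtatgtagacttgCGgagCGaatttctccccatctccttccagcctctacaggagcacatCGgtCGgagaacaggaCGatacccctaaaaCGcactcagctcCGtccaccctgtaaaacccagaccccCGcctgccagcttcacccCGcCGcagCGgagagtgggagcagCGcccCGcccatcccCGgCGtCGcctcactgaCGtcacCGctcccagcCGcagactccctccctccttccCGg
Spp1, plus strand, chr5:104863880-104864129: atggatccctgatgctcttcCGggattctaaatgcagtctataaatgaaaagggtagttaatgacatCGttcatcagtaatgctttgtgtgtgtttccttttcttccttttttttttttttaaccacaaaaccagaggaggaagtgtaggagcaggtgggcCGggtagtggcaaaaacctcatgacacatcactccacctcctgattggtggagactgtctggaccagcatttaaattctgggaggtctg
Hipk2, minus strand, chr6:38826190-38826439: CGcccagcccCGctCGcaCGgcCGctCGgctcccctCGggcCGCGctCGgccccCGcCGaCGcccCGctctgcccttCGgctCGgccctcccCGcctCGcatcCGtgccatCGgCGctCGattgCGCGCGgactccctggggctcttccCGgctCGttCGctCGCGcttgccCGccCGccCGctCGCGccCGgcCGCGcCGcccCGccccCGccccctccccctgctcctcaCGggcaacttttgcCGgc

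Over the whole 300 bases of each RefSeq promoter (250 before and 50 after the start), Hipk2 had 48 CpG and Ranbp6 27, more than 98.8% and 84.5% of 32851 mouse promoters. Each of the 2 annotated Spp1 promoters had 3, more than 23.3% of them, at a median of 7 over all. A second annotated Hipk2 promoter, inside the gene, had 1 and lay under H3K4me1 rather than H3K4me3. The word TATAAA (either strand) was in the first Spp1 promoter, and not in the second or in the CpG-rich ones of Ranbp6 and Hipk2, and in 13.6% of all promoters. The Spp1 match stands toward the left end of the sequence shown, far from the start. It is a match of letters only, and a role in starting transcription was not tested.

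Ranbp6 had a Pol2 peak with a fold of 14.1 (percentile 67.5) at its start and an H3K4me3 peak of 1257 bp with a fold of 25.5 in control cells and 18.0 in KD. Within their lists those folds stood at percentiles 72.2 and 71.8, so its standing was nearly the same. H3K4me2 at the start stood at percentile 82.1 in control and 91.1 in KD by fold, but at 97.1 and 97.3 by −log10 q, and newborn lens had it at 91.6 by fold.

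Nedd1 had a strong Pol2 peak, with a fold of 26.4 (percentile 93.5), and an H3K4me3 peak with a fold of 26.0 in control and 17.0 in KD, at percentiles 73.8 and 67.4. The change of −6.36 percentile points lies between the quartiles of all kept H3K4me3 peaks, −9.38 and 4.49, of which 58.8% stood lower in KD. No H3K4me1 island lay within 2 kb of its start in either arm, and lens H3K4me2 there had a fold of 20.3.

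Spp1 combined the strongest Pol2 of the 4, with a fold of 35.5 (percentile 97.9), with the weakest H3K4me3. Its strongest H3K4me3 peak had a fold of 7.55 in control and 7.10 in KD, at percentiles 17.7 and 20.1, and it covers the region downstream of the first start and not the sequence shown above. A second RefSeq start of Spp1 lies inside the gene, and the 300 bases of its promoter, on chromosome 5 from 104864961 to 104865260, lay wholly under H3K4me3 in both arms. The 3 control H3K4me3 peaks there were called as 1 peak of 1572 bp in KD. H3K4me2 was broad in both arms (3064 and 3044 bp, folds 15.4 and 14.2), and the upstream H3K4me1 island of 34 reads was not kept. Newborn lens had no H3K4me2 peak within 2 kb of a Spp1 start, where 66.7% of protein-coding genes had one.

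Hipk2 showed the reverse pairing. Its Pol2 was weak, with a fold of 7.06 (percentile 36.1), and its H3K4me3 the strongest of the 4, with a fold of 40.5 in control and 24.6 in KD, at percentiles 95.6 and 90.5. These values come from different sites. The Pol2 peak lies on a smaller H3K4me3 peak with a fold of 13.0 in control (percentile 36.9). The H3K4me3 peak with a fold of 40.5 holds Pol2 peaks with folds from 3.89 to 4.53 and does not reach the promoter sequence shown above. H3K4me3 covered 25.7% of the 300 bases of that promoter in control. The first Hipk2 start lies beside that of Tbxas1, which runs the other way, so both genes share these peaks and they cannot be assigned to one of them. Lens H3K4me2 was strong there too, with a fold of 26.7 (percentile 92.6).

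**Figure D5:**
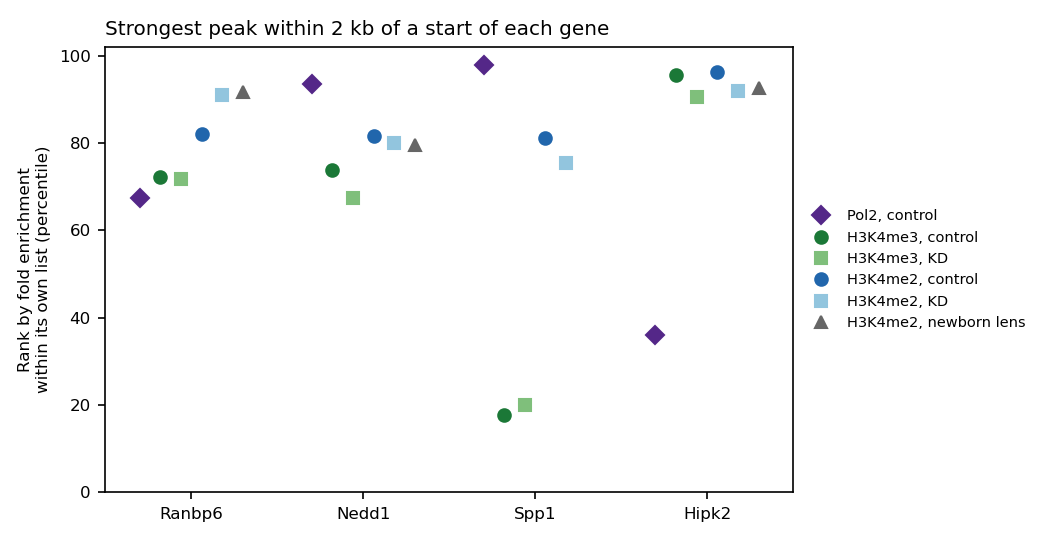
Percentile by fold enrichment, within its own list, of the strongest Pol2, H3K4me3 and H3K4me2 peak within 2 kb of a start of each gene. The points of a gene need not come from the same site. Spp1 has the highest Pol2 point, at 97.9, and the lowest H3K4me3 points, at 17.7 and 20.1, and Hipk2 has the lowest Pol2 point, at 36.1, beside the highest H3K4me3.

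Away from the gene starts, Pol2 was most spread out at Spp1. Of the 19 Pol2 peaks in the windows, 12 overlapped H3K4me3 (63.2%, 41.0 to 80.9), against 68.6% of the list. H3K4me2 lay over 18 of the 19, and its share over the whole list was not counted. All 3 Pol2 peaks of the Ranbp6 window and the only one at Nedd1 overlapped H3K4me3, as did 4 of 5 at Hipk2 and 4 of 10 at Spp1. In the Ranbp6 window, 2 of the Pol2 peaks and 2 of the H3K4me3 peaks lay at the start of the neighbour 9930021J03Rik. Ranbp6 itself had 1 of each. In the Spp1 window, 2 of the Pol2 peaks with H3K4me3 lay at the start of Pkd2. A group of 4 Spp1 Pol2 peaks, with folds from 3.42 to 7.83, lies around the second Pax6 peak, 27.0 kb upstream of the start, inside the H3K4me1 island.

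The other genes of each family gave the following picture at their starts, beside 49.0% of all protein-coding genes with H3K4me3, 47.9% with Pol2 and 66.7% with lens H3K4me2. Of the importin-β family, 13 of 13 genes, Ranbp6 and the transport receptors Kpnb1 and Xpo1 among them, had H3K4me3, Pol2 and lens H3K4me2. Of the γ-tubulin ring complex, 9 of 10 genes had H3K4me3 and Pol2 and 10 of 10 lens H3K4me2, with Tubg2 the exception. Of the Hipk kinases, 3 of 4 had all of these, and Hipk4 had none. Of the SIBLING genes, the family of secreted mineral-matrix proteins that neighbour Spp1, 1 of 5 had H3K4me3 or Pol2, which was Spp1, and Ibsp, Dmp1, Dspp and Mepe had no region of any list at their starts. Lens markers carried H3K4me3 at 4 of 8 genes in αTN4 cells (Pax6, Cryaa, Cryab and Prox1, and not Foxe3, Bfsp1, Mip or Cdh1), near the share of all genes. They carried lens H3K4me2 at 8 of 8, and control αTN4 H3K4me2 at the same 4. Markers of other eye, blood and vessel cells carried H3K4me3 at 0 of 8 genes in αTN4 cells, and lens H3K4me2 at 2 of 8, Cdh5 and Crx. Control αTN4 H3K4me2 lay at 1 of these 8, Pecam1, with a fold of 4.03.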

How the data were processed

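The genes and the gene lists were chosen with earlier results of these data known. Reads were mapped by the authors with Bowtie (mm9). The authors called sharp peaks with MACS2 and H3K4me1 islands with SICER, and deposited for each MACS2 peak the fold enrichment, a ratio over background, and the −log10 of p and q, and for each SICER island the count of ChIP and of input reads, the fold over input, a p-value and an FDR. Sequencing depth of the MACS2 libraries is unknown. Some names in the control H3K4me2 list point to pooled replicates. The H3K4me2 comparisons with KD may therefore set lists of unlike depth side by side, which was not tested. One label field gives the Pax6 and Pol2 antibodies the other way round; libraries were assigned by title. RNA-seq was not analysed here.

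Overlap means at least 1 bp, and a kept region overlaps a KD region. Percentiles are within one list. The change in H3K4me1 density is the log2 ratio of reads per kb for the KD island with the Pax6 peak, relative to the median of 1 to 1 pairs. Wilson, Poisson and binomial intervals (95%) cover counting error only. The genes named are the 4 members, protein-coding genes with a start in the windows and the listed families. Positions are 1-based in mm9 with GENCODE vM1, and promoter sequences are from RefSeq (GRCm38.p6). The motif was learned by expectation maximisation. The scripts were tested on simulated data. Tools were samtools 1.23.1 and, under Python 3.11.15, pandas 2.3.3, NumPy 2.4.6, matplotlib 3.10.9 and SciPy 1.17.1.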

Additional observations from a re-analysis of the deposited data

How the results depend on the processing

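No paired analysis was possible because the labels give 1 library per condition. Of the 47 values recomputed under another setting, 37 moved by less than their counting error, for percentiles, by less than 5 points or, for the count of Pax6 peaks, by 1 or 0. With the flanks halved, 3 Pax6 peaks in place of 7 lay in the windows. Scaling by total ChIP reads over islands, a sum that moves with how many islands were called, gave H3K4me1 density changes of 0.30 at Ranbp6, 0.63 at Spp1 and 0.60 at Hipk2, so the Ranbp6 value turned positive. With no scaling, the Ranbp6 value was −0.53 and that of Hipk2 −0.23. Relative to input reads, the Spp1 value was −0.31. The sign of these changes therefore depends on the scaling. With −log10 q as the rank, the H3K4me2 change at the lead peak was −11.6 percentile points at Nedd1 and −19.9 at Spp1, and H3K4me3 at the Spp1 start rose by 7.83. The H3K4me3 value of Ranbp6 went from −0.42 to 3.96 in the same setting. The cause was not tested. No read totals of the MACS2 libraries are known, so a lost peak can be one that fell under the caller's threshold.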
